A study of Mus musculus with 17 samples.

Results

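A set of 10 genes of fat cell differentiation and lipid droplets was followed in cultured mouse pancreatic stellate cells: the transcription factors Pparg, Cebpa and Cebpd, the fatty acid handling genes Fabp4, Fabp5, Lpl and Cd36, the droplet coat gene Plin2, and the lipase gene Pnpla2 with its inhibitor G0s2. They were chosen by name as genes tied to the quiescent, fat-storing state of stellate cells, and they are 10 of the 35896 gene IDs in the series. Of these, 9 passed the filter on low counts and were tested among 13923 genes, and Cd36 did not pass it.

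RNA was sequenced from 17 libraries of 2 stellate cell lines, PSC4 and PSC5, both wild type and of strain C57BL/6J. All cells were grown in Matrigel, which models the basement membrane, and were collected after 4 days. The control group received control medium (5 libraries: PSC4 at passages 23, 24 and 25, PSC5 at passages 27 and 28). The TGF-beta group received TGF-beta at 20 ng/mL, a cytokine that turns stellate cells into contractile myofibroblasts (4 libraries: PSC4 at passages 24 and 25, PSC5 at passages 27 and 28). The CM group received medium conditioned by pancreatic tumour organoids (4 libraries: PSC4 at passages 23 and 24, PSC5 at passages 27 and 28). The CM + neratinib group received conditioned medium with 300 nM of the drug neratinib, which blocks ERBB receptor kinases, at the same lines and passages (4 libraries). The series' own text calls the control cells quiescent and the TGF-beta cells myofibroblast-like. Replicates were passages of 2 lines and not animals, so p-values here measure the spread between these cultures.

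Stellate cells of the liver and pancreas store fat and vitamin A in droplets while quiescent and lose them on activation. PPARG and the C/EBP factors drive the fat cell programme in other mesenchymal cells: C/EBPδ acts early, and PPARG and C/EBPα then maintain each other and switch on genes such as Fabp4, Lpl and Cd36. In the droplet, perilipin 2 coats the surface, PNPLA2 (adipose triglyceride lipase) starts the breakdown of stored triglyceride, and G0S2 binds and blocks that lipase.

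For the genes below, RefSeq (GRCm38.p6) promoter windows were at hand for 6 of the 10 members: Pparg, Cebpa, Plin2, Cd36, Pnpla2 and G0s2. The stretches upstream of the start are printed for the 3 of these 6 with a called change between media of over 1 on the log2 scale, Plin2, G0s2 and Cebpa, and for the most downstream of 3 listed Pparg starts, which gives the adipocyte-rich isoform. Capitals mark matches to 5 motifs searched on both strands in the 250 bases before each RefSeq start: the C/EBP motif TTGCNNAA, the nuclear receptor hexamer AGGTCA, the PPAR direct repeat, which holds 2 copies of that hexamer 1 base apart, the STAT motif TTCCNGGAA and the E-box CACGTG. Plin2 lies at chr4:86670061-86670309 on the minus strand, G0s2 at chr1:193273218-193273438 on the minus strand, Cebpa at chr7:35119043-35119292 on the plus strand and the Pparg stretch at chr6:115421816-115422065 on the plus strand.
Plin2: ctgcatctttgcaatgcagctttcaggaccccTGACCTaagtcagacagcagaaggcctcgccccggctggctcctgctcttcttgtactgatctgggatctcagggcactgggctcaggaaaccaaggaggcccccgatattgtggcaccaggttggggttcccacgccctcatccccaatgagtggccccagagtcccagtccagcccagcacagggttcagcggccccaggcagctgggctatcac
G0s2: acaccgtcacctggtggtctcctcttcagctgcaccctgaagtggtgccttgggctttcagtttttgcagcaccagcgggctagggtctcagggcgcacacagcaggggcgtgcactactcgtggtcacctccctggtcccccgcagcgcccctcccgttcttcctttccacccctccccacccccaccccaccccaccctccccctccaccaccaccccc
Cebpa: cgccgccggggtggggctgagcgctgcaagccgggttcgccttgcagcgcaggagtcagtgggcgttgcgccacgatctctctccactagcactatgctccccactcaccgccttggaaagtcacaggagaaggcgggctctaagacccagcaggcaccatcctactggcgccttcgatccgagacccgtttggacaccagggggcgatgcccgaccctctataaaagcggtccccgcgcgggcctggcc
Pparg: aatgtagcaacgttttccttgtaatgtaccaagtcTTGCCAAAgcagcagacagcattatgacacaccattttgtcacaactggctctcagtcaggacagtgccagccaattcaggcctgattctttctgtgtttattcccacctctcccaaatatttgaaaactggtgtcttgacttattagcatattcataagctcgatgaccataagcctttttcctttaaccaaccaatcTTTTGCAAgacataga
The Plin2 stretch held 1 hexamer, which began 218 bases before the start, and the Pparg stretch held 2 C/EBP matches, which began 215 and 16 bases before the start. The printed Plin2 and G0s2 stretches, of 249 and 221 bases, stop where GENCODE M21 places the gene, and the search covered all 250 bases. No searched motif was found in the 250 bases of G0s2 or Cebpa. Over all 32851 RefSeq promoters of the same length, 14.0% held the hexamer, 9.56% the C/EBP motif, 6.02% the E-box, 0.913% the STAT motif and 0.0335% the PPAR repeat. A match is a description of the letters only. According to GENCODE M21, the G0s2 stretch overlaps an exon of Lamb3 on the other strand.

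Library totals ran from 22168953 to 29421447 counts, so that 3 counts in a library came to between 0.101 and 0.138 CPM (counts scaled to a common library size with TMM factors). The stellate cell and fibroblast markers Pdgfrb, Pdgfra, Vim, Col1a1, Col1a2, Col3a1 and Dcn were abundant, and the 13 markers summed to between 4090 and 20523 CPM. Lrat, the enzyme that stores vitamin A, had 1 count in a single library. Of the 9 adipocyte markers, no library had more than 4 counts of Adipoq or Plin1, 2 of Cidec, or 1 of Lep or Cfd. Adrb3 reached 6 counts, and the 3 tested markers reached 46 (Retn), 40 (Slc2a4) and 29 (Gpd1). Against control, 2 of these 3 fell in TGF-beta, none was called in CM, and 1 rose and 2 fell in CM + neratinib. The shares of all genes called are given below. The 9 adipocyte markers summed to between 1.30 and 3.62 CPM over all libraries. The macrophage markers Adgre1, Marco, C1qa, C1qb and C1qc and the endothelial marker Cldn5 were at 0 counts in all 17 libraries. The 14 epithelial markers summed to between 15 and 23.7 CPM in the control and TGF-beta libraries, but to between 20.5 and 181 CPM in CM and between 9.75 and 326 CPM in CM + neratinib. Of the 12 tested, 9 rose over control in CM, 11 in CM + neratinib and 0 in TGF-beta, and their part in the results with conditioned medium was not tested. The 10 endothelial markers summed to 4.13 to 8.51 CPM in control, 7.83 to 23.3 in TGF-beta, 2.52 to 5.29 in CM and 3.80 to 32.2 in CM + neratinib. Against control, 3 of the 5 tested rose in TGF-beta, 1 fell in CM, and 1 rose and 3 fell in CM + neratinib. Vwf rose by 2.64 ± 0.51 on the log2 scale in TGF-beta (edgeR adjusted p = 0.000785). It rose by 2.36 ± 0.51 in CM + neratinib (edgeR adjusted p = 0.00208), with overlap between the groups. The libraries labelled PSC4 passage 23 stood apart from their line. In the control group, such a library differed from the other PSC4 libraries by a root mean square of 0.535 to 0.558 on the log2 CPM scale over all tested genes, and from the PSC5 libraries by 0.38 to 0.39. In CM the values were 0.551 and 0.401 to 0.44, and in CM + neratinib 0.691 and 0.602 to 0.637. Each comparison was therefore also fitted without these libraries.

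Per kilobase of transcript, the control cells held most Fabp5 (57.5 CPM per kb), Plin2 (48.7 CPM per kb) and Lpl (30.9 CPM per kb). Cebpd followed at 17.3 CPM per kb and Pnpla2 at 12.7 CPM per kb. Cebpa (4.35 CPM per kb), G0s2 (2.77 CPM per kb), Pparg (1.87 CPM per kb) and Fabp4 (1.06 CPM per kb) were low. With bulk libraries, fewer expressing cells and less RNA per cell cannot be told apart.

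**Figure D1:**
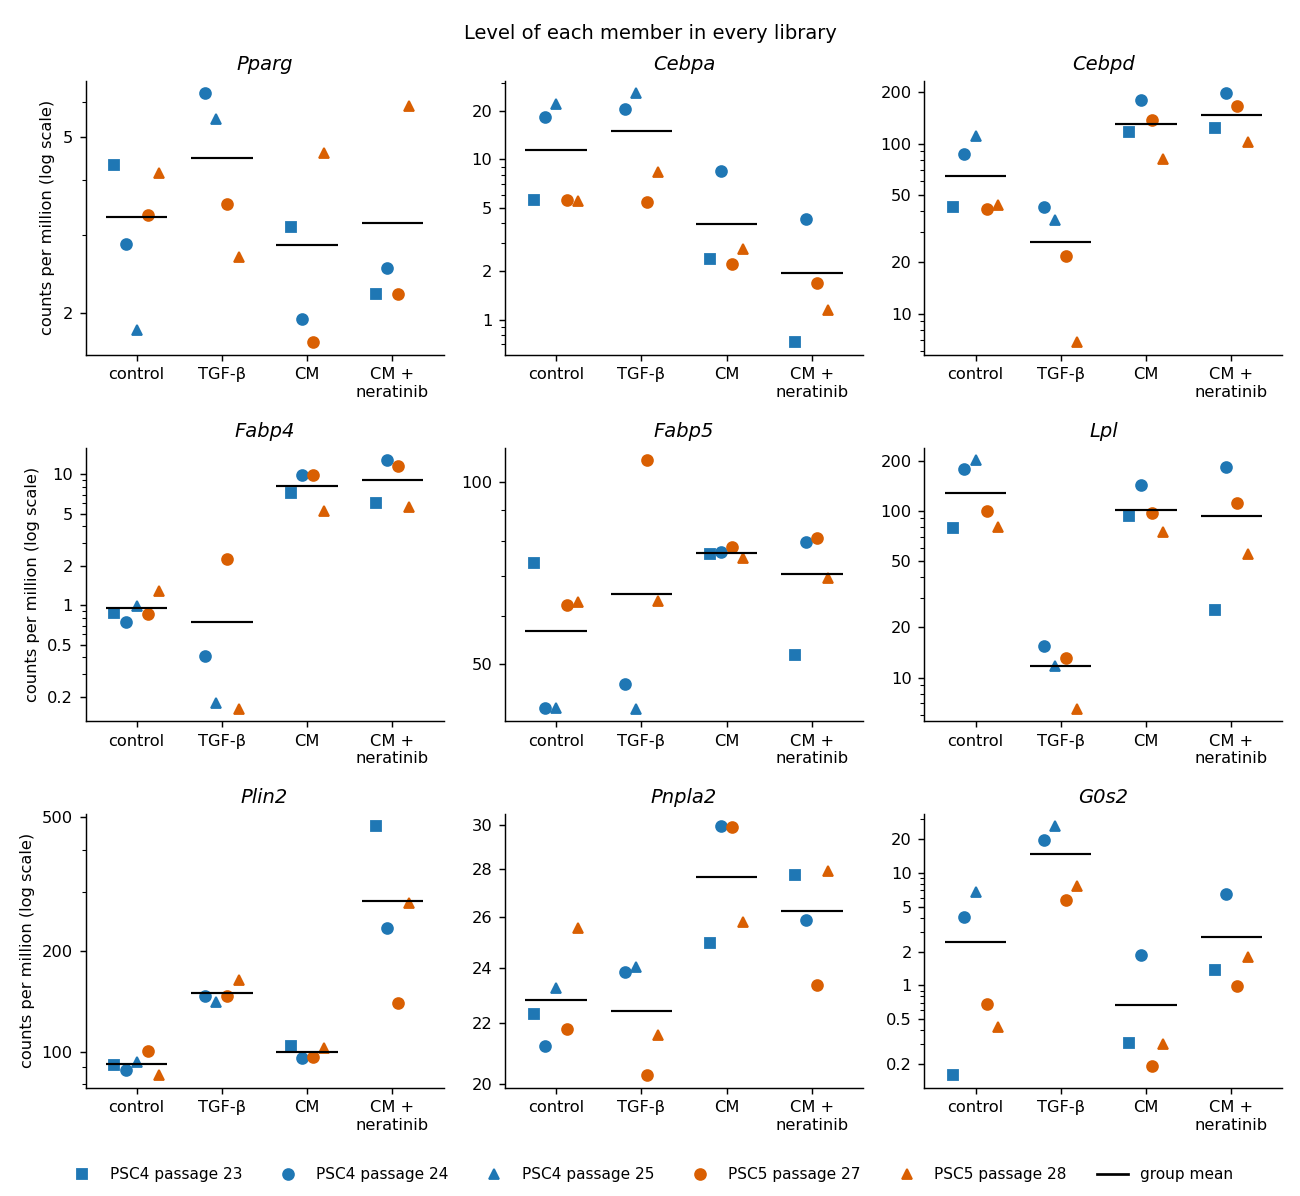
Level of the 9 tested members in every library, in CPM on a log axis that differs between panels. Points are libraries, coloured by cell line and shaped by passage, and black bars are group means. Lpl is lowest in all 4 TGF-beta libraries (6.51 to 15.4 CPM), Fabp4 is above 5 CPM in all 8 libraries with conditioned medium, and the mean of Plin2 is highest in CM + neratinib (281 CPM), whose lowest library, at 140 CPM, lies just below the 4 TGF-beta libraries.

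In TGF-beta, 4 of the 9 tested members were called with an adjusted p under 0.05 (edgeR quasi-likelihood test, Benjamini-Hochberg over all tested genes). G0s2 and Plin2 rose, and Lpl and Cebpd fell. Among all tested genes 40.2% were called, 19.7% higher and 20.5% lower (16.9% and 24% with upper-quartile scaling), so the members' share (4 of 9) was near that of all genes. The median log2 fold change was 0.13 over the 9 members and -0.02 over all genes. In CM, 3 of 9 were called and all 3 (Fabp4, Cebpd and Pnpla2) rose, beside 14.2% of all genes (7.05% higher and 7.14% lower). With upper-quartile scaling these all-gene shares became 5.62% higher and 9.39% lower, and the members called became 2 of 9. The count for CM fell to 1 without CM PSC4 passage 24, CM PSC5 passage 27, control PSC4 passage 24 or control PSC5 passage 27, and was 5 without the passage 23 libraries. In CM + neratinib against control, 4 of 9 were called (Fabp4, Plin2 and Cebpd higher, Cebpa lower), beside 43.1% of all genes (22.2% higher and 20.9% lower, or 17.5% and 25.1% with upper-quartile scaling). Adding neratinib to CM gave 1 call of 9, a rise of Plin2, beside 20.5% of all genes (10.8% higher and 9.63% lower). CM and TGF-beta differed in 6 of 9 members (Fabp4, Lpl, Cebpd and Pnpla2 higher in CM, Cebpa and G0s2 lower), beside 35.3% of all genes (17.8% higher and 17.5% lower). CM + neratinib and TGF-beta also differed in 6 of 9 (Fabp4, Lpl, Cebpd and Plin2 higher, Cebpa and G0s2 lower), beside 44% of all genes (23.1% higher and 20.9% lower). The members' median log2 fold change was 0.136 in CM and 0.281 in CM + neratinib against control, 0.157 in CM + neratinib against CM, and 0.284 and 0.225 in the comparisons of CM and CM + neratinib with TGF-beta, where the median over all genes lay between -0.000368 and 0.0265. The comparisons with control share the 5 control libraries, and those with TGF-beta share its 4.

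Libraries of one line and passage were made in several media, and a fit with line and passage as a block (the replicate block) called as many members or more in each comparison, and more genes. TGF-beta against control had 4 members called beside 50.9% of all genes, CM against control 4 beside 23.3%, CM + neratinib against control 5 beside 52.4%, CM + neratinib against CM 3 beside 32.8%, CM against TGF-beta 7 beside 43.4%, and CM + neratinib against TGF-beta 7 beside 50.4%. The members added were Cebpa and G0s2 in the comparisons within conditioned medium and with control, Plin2 in CM against TGF-beta and Pnpla2 in CM + neratinib against TGF-beta. Their values stand with each gene.

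**Figure D2:**
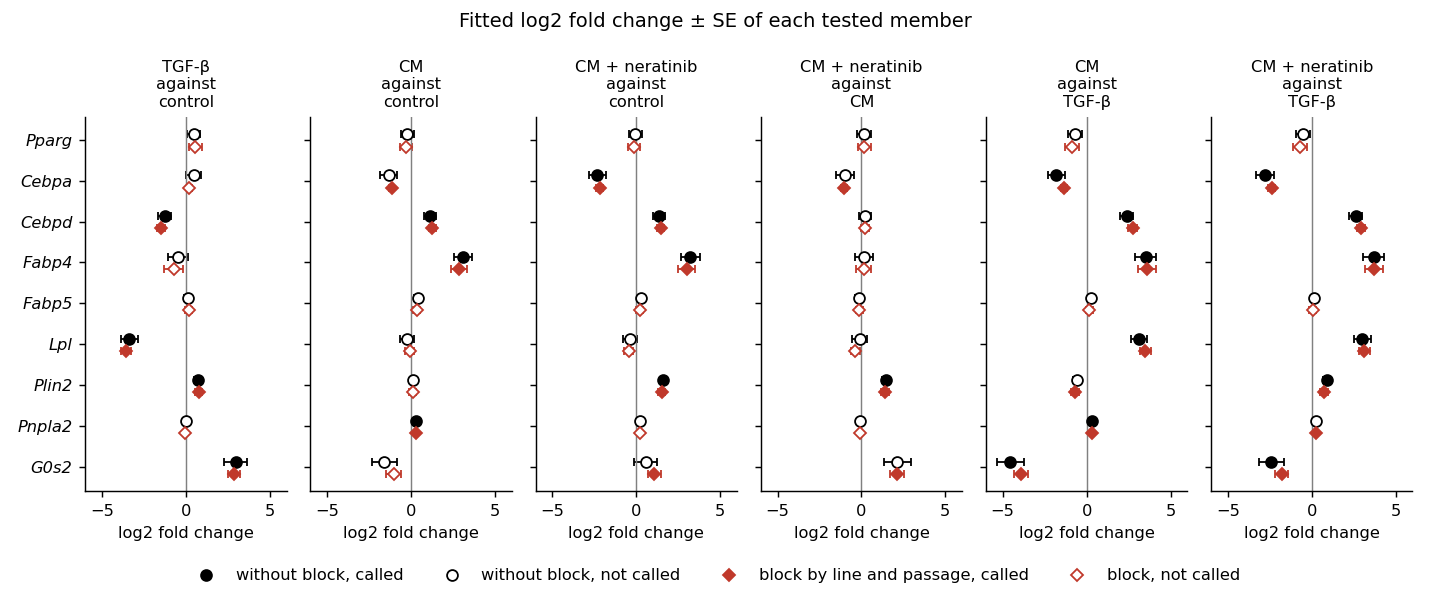
Fitted log2 fold change ± SE of the 9 tested members in the 6 comparisons, without a block (circles) and with line and passage as a block (diamonds). Filled symbols have an adjusted p under 0.05. Pparg and Fabp5 are open in all panels. The block adds filled symbols for Cebpa and G0s2, for Plin2 in CM against TGF-beta and for Pnpla2 in CM + neratinib against TGF-beta.

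Pparg (chr6:115360951-115490399, plus strand), the nuclear receptor at the head of the programme, was expressed at a low level and was called in none of the 6 comparisons. Control libraries had 4.33, 2.86 and 1.83 CPM in PSC4 at passages 23, 24 and 25 and 3.34 and 4.15 CPM in PSC5 at passages 27 and 28. TGF-beta libraries had 6.27 and 5.49 CPM in PSC4 and 3.53 and 2.69 CPM in PSC5. The CM libraries had 3.13 and 1.94 CPM in PSC4 and 1.72 and 4.59 CPM in PSC5, and with neratinib the values were 2.21 and 2.53 CPM in PSC4 and 2.20 and 5.87 CPM in PSC5. The groups overlapped throughout, and the 2 PSC4 libraries with TGF-beta were the highest of that line. The fitted log2 difference from control was 0.46 ± 0.38 (SE) in TGF-beta (edgeR adjusted p = 0.371), -0.22 ± 0.39 in CM (edgeR adjusted p = 0.746) and -0.07 ± 0.39 in CM + neratinib (edgeR adjusted p = 0.903). In TGF-beta, Pparg was 2.19 and 3.00 times its control value in PSC4 at passages 24 and 25, and 1.06 and 0.647 times in PSC5 at passages 27 and 28. The test of a difference between lines in this response gave -1.24 ± 0.72 on the log2 scale with an edgeR adjusted p of 1.00.

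Among the 10835 tested genes with a symbol and a mean of at least 5 CPM, those closest to Pparg over the 17 libraries were Prrg4, Anxa1, Emp3 and Ntn4. Their root mean square differences from Pparg, after centring log2 CPM, were 0.353, 0.369, 0.374 and 0.38, beside 0.565 for a flat profile and a median of 0.612 over all candidates. The likeness is thus loose. These genes were chosen for their likeness to Pparg, and their mean level was highest in TGF-beta, as that of Pparg was (Prrg4, 10.4 CPM against 5.84 CPM in control).

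Cebpa (chr7:35119293-35121928, plus strand), which holds fat cells in their mature state, was high in control and TGF-beta and low in conditioned medium. Control libraries had 5.56, 18.4 and 22.2 CPM in PSC4 and 5.57 and 5.46 CPM in PSC5, and TGF-beta libraries had 20.7 and 25.7 CPM in PSC4 and 5.42 and 8.30 CPM in PSC5. The CM libraries had 2.38 and 8.47 CPM in PSC4 and 2.22 and 2.75 CPM in PSC5, and the CM + neratinib libraries 0.724 and 4.24 CPM in PSC4 and 1.69 and 1.15 CPM in PSC5. PSC4 at passages 24 and 25 was the high end of every group it was in, and PSC4 at passage 23 lay with PSC5. CM + neratinib did not overlap control, and Cebpa fell by 2.32 ± 0.51 on the log2 scale there (edgeR adjusted p = 0.00242), lower in 4 of 4 passages with ratios of 0.13 to 0.303. CM alone overlapped control, with a log2 difference of -1.35 ± 0.48 and an edgeR adjusted p of 0.073, although each of the 4 passages was lower (0.398 to 0.504 times control). With the replicate block the fall in CM was 1.16 ± 0.17 on the log2 scale (edgeR adjusted p = 0.000715), and without the passage 23 libraries the log2 difference was -1.21 (edgeR adjusted p = 0.00106). With neratinib the level was below that in CM in 4 of 4 passages (0.304 to 0.76 times CM), at a log2 difference of -0.97 ± 0.52 (edgeR adjusted p = 0.204), or -1.03 ± 0.19 with the block (edgeR adjusted p = 0.00225). TGF-beta did not differ detectably from control (0.46 ± 0.45, edgeR adjusted p = 0.453), and Cebpa was lower than in TGF-beta in CM (-1.80 ± 0.50, edgeR adjusted p = 0.0109) and in CM + neratinib (-2.77 ± 0.53, edgeR adjusted p = 0.000708). The order of the mean levels was TGF-beta, control, CM and CM + neratinib, in which no pair of neighbours was called without the block, and the last 2 steps were called with it. A transcript of Gm45091 on the other strand shares 51 of the 2636 exon bases of Cebpa.

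Cebpd (chr16:15887286-15891031, plus strand), an early factor of the programme that is also induced by inflammatory cytokines, went in opposite directions in TGF-beta and in conditioned medium. Control libraries had 42.2, 86.85 and 111 CPM in PSC4 and 41.1 and 43.4 CPM in PSC5. TGF-beta libraries had 42.1 and 35.4 CPM in PSC4 and 21.7 and 6.79 CPM in PSC5. CM libraries had 117.5 and 181 CPM in PSC4 and 138 and 81.4 CPM in PSC5, and CM + neratinib libraries 124 and 197 CPM in PSC4 and 166 and 102 CPM in PSC5. The TGF-beta libraries lay below both conditioned medium groups without overlap. TGF-beta overlapped control, since its PSC4 passage 24 library lay just above control PSC5 passage 27, and both conditioned medium groups overlapped control, where PSC4 at passages 24 and 25 was high. Cebpd fell by 1.28 ± 0.36 on the log2 scale in TGF-beta (edgeR adjusted p = 0.0109), lower in 4 of 4 passages. It rose by 1.13 ± 0.35 in CM (edgeR adjusted p = 0.0436) and by 1.34 ± 0.35 in CM + neratinib (edgeR adjusted p = 0.00695), in 4 of 4 passages each. Neratinib added 0.21 ± 0.36 to CM (edgeR adjusted p = 0.728), so those 2 neighbours in the order did not differ beyond their spread. The rise in CM was lost without the cell line term (edgeR adjusted p = 0.144) and without any 1 of 7 libraries (every library of the comparison other than CM PSC4 passage 23 and control PSC4 passage 25), of which CM PSC5 passage 27 gave the highest edgeR adjusted p (0.151), while with the replicate block it was 0.00211. Spidr, on the other strand, shares 562 of the 3746 exon bases of Cebpd, and its mean levels were 57.3 CPM in control, 50.7 in TGF-beta, 77.4 in CM and 106 in CM + neratinib. The strand of the counts is not given in the sources used here, and the part of Spidr in the Cebpd values was not tested.

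Fabp4 (chr3:10204088-10208576, minus strand), the fatty acid binding protein of fat cells and macrophages and a PPARG target, was low in control, at 21 to 36 counts in a library, and rose in conditioned medium. Control libraries had 0.8745, 0.751 and 0.987 CPM in PSC4 and 0.862 and 1.28 CPM in PSC5. TGF-beta libraries had 0.413 and 0.181 CPM in PSC4 and 2.24 and 0.163 CPM in PSC5. CM libraries had 7.24 and 9.84 CPM in PSC4 and 9.94 and 5.23 CPM in PSC5, and CM + neratinib libraries 6.04 and 12.8 CPM in PSC4 and 11.5 and 5.64 CPM in PSC5. All 8 conditioned medium libraries were above all 9 others. The rise over control was 3.07 ± 0.54 on the log2 scale in CM (8.40-fold, edgeR adjusted p = 0.00251) and 3.23 ± 0.55 in CM + neratinib (9.38-fold, edgeR adjusted p = 0.00038). The 2 conditioned medium groups differed by 0.16 ± 0.52 (edgeR adjusted p = 0.862). TGF-beta and control overlapped, because PSC5 passage 27 in TGF-beta was high, and differed by -0.46 ± 0.60 (edgeR adjusted p = 0.578). Without that library Fabp4 fell by 1.90 on the log2 scale in TGF-beta (edgeR adjusted p = 0.00379).

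The 9 adipocyte markers, which leave out Fabp4, overlapped between CM and control: they summed to 2.43 to 3.55 CPM in control, 1.30 to 1.62 in TGF-beta, 2.72 to 3.62 in CM and 1.83 to 2.15 in CM + neratinib. The 12 macrophage markers summed to 2.29 to 4.53 CPM in control and 3.14 to 3.92 CPM in CM. In CM + neratinib, 3 libraries had 3.19 to 4.06 CPM of them and PSC4 passage 23 had 13.5 CPM, mostly Cd68. The epithelial markers were higher with the conditioned medium coded T6 (181 and 151 CPM in CM) than with that coded T8 (20.5 and 42.9 CPM). In CM + neratinib they summed to 147 and 326 CPM with T6 and to 9.75 and 52.7 CPM with T8. Fabp4 in CM was at 9.84 and 5.23 CPM with T6 and at 7.24 and 9.94 CPM with T8. In CM + neratinib it was at 12.8 and 5.64 CPM with T6 and at 6.04 and 11.5 CPM with T8. A link between these markers and Fabp4 was not tested. The labels do not say what T6 and T8 stand for.

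Fabp5 (chr3:10012548-10016607, plus strand), a fatty acid binding protein of many cell types and a neighbour of Fabp4, was called in none of the 6 comparisons. It ranged from 42.2 to 73.4 CPM in control (median 62.5), from 42.2 to 109 CPM in TGF-beta, from 74.8 to 78.0 CPM in CM and from 51.8 to 81.0 CPM in CM + neratinib. The 4 CM libraries lay close together and above all 5 control libraries, and the log2 difference was 0.41 ± 0.22 (edgeR adjusted p = 0.227). CM differed from TGF-beta by 0.28 ± 0.23 (edgeR adjusted p = 0.364), and without TGF-beta PSC5 passage 27 by 0.57, which was called (edgeR adjusted p = 0.0319). In PSC4 at passages 24 and 25 the control values were 42.3 and 42.2 CPM and the TGF-beta values 46.3 and 42.2 CPM, while PSC5 at passage 27 had 62.5 CPM in control and 109 CPM in TGF-beta. GENCODE M21 lists a processed pseudogene, Fabp5l2, to which estimated counts could be split, so the Fabp5 values are uncertain.

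Lpl (chr8:68880491-68907448, plus strand), the secreted lipase that frees fatty acids from lipoproteins for uptake, had the largest fall of the members in TGF-beta. Control libraries had 78.7, 177 and 202 CPM in PSC4 and 99.4 and 79.6 CPM in PSC5. TGF-beta libraries had 15.4 and 11.8 CPM in PSC4 and 13.0 and 6.51 CPM in PSC5. No TGF-beta library overlapped any library of the other groups, and the fall from control was 3.37 ± 0.49 on the log2 scale (edgeR adjusted p = 7.75e-05), to 0.0584 to 0.131 times control over 4 of 4 passages. CM libraries had 92.8 and 142 CPM in PSC4 and 97.4 and 74.2 CPM in PSC5, and CM + neratinib libraries 25.45 and 182 CPM in PSC4 and 112 and 55.2 CPM in PSC5. Both conditioned medium groups overlapped control, with log2 differences of -0.25 ± 0.43 (edgeR adjusted p = 0.743) and -0.36 ± 0.43 (edgeR adjusted p = 0.524). Against TGF-beta, Lpl was higher by 3.13 ± 0.49 in CM (edgeR adjusted p = 0.000187) and by 3.02 ± 0.49 in CM + neratinib (edgeR adjusted p = 0.000192). The order was control, CM and CM + neratinib, which did not differ beyond their spread, and then TGF-beta. The lowest conditioned medium library, CM + neratinib PSC4 passage 23, had 0.274 times the Lpl of its CM partner, PSC5 passage 28 had 0.743 times, and PSC4 passage 24 and PSC5 passage 27 were at 1.28 and 1.15 times theirs. Cd36 (chr5:17781690-17888801, minus strand), the membrane receptor that takes up fatty acids, had 0 counts in 16 libraries and 1 count in the other, CM + neratinib PSC4 passage 24. At this depth a count of 0 allows up to 3 counts, or 0.101 to 0.138 CPM (counting error only).

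Plin2 (chr4:86648386-86670060, minus strand), the droplet coat protein of cells other than fat cells, rose in TGF-beta and in CM + neratinib and stayed near control in CM. Control libraries had 91.5, 88.4 and 93.2 CPM in PSC4 and 101 and 85.2 CPM in PSC5, and TGF-beta libraries had 147 and 140.5 CPM in PSC4 and 147 and 164 CPM in PSC5. CM libraries had 104 and 96.2 CPM in PSC4 and 96.8 and 103 CPM in PSC5, and CM + neratinib libraries 470 and 235 CPM in PSC4 and 140 and 278.5 CPM in PSC5. The spread within control, TGF-beta and CM was small (coefficients of variation of 6.44%, 6.62% and 4.16%) and within CM + neratinib it was 49.4%. The TGF-beta libraries were all above control, and the rise was 0.72 ± 0.22 on the log2 scale (1.65-fold, edgeR adjusted p = 0.0163). CM overlapped control and differed by 0.14 ± 0.22 (edgeR adjusted p = 0.724). With neratinib all libraries were above CM, and the rise over CM was 1.47 ± 0.24 (2.77-fold, edgeR adjusted p = 0.00102), at 1.44 to 4.5 times CM over 4 of 4 passages. Without the passage 23 libraries, of which the neratinib one was the highest, the rise over CM was 1.14 ± 0.18 (edgeR adjusted p = 0.00245). The difference of CM from TGF-beta was -0.58 ± 0.23 (edgeR adjusted p = 0.0628), or -0.68 ± 0.23 with the replicate block (edgeR adjusted p = 0.0288), and the groups did not overlap. CM + neratinib exceeded TGF-beta by 0.89 ± 0.23 (edgeR adjusted p = 0.00629) but overlapped it, since PSC5 passage 27 had 140 CPM. That call was lost when only these 2 groups were fitted (edgeR adjusted p = 0.0707). The order of the mean levels was CM + neratinib, TGF-beta, CM and control. Without the block, neither TGF-beta against CM nor CM against control was called. With it, CM against TGF-beta was called and CM against control was not.

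The passage 23 library with neratinib, at 470 CPM of Plin2, also had the highest summed endothelial markers (32.2 CPM, mostly Vwf at 29.8 CPM). It had the highest summed macrophage markers (13.5 CPM, mostly Cd68) and the lowest epithelial sum (9.75 CPM) as well. The rise of Plin2 was called without it, as given above. Genes closest to Plin2 over the 17 libraries were Cndp2, Eif4ebp1, Slc6a15 and Cyb5r1, with root mean square differences of 0.176, 0.199, 0.201 and 0.226 on the centred log2 CPM scale, beside 0.661 for a flat profile and a median of 0.688 over all candidates. They were chosen for this likeness, so a shared order of group means follows from the choice. Each had its highest mean in CM + neratinib and its second highest in TGF-beta, for example Cndp2 at 187.5 and 97.95 CPM beside 68.05 in CM and 58.75 in control.

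Pnpla2 (chr7:141455198-141460743, plus strand), the lipase that opens triglyceride breakdown, varied least of the members. Control libraries had 22.3, 21.2 and 23.3 CPM in PSC4 and 21.8 and 25.5 CPM in PSC5, and TGF-beta libraries ran from 20.3 to 24.1 CPM. CM libraries had 24.97 and 29.95 CPM in PSC4 and 29.9 and 25.8 CPM in PSC5, and CM + neratinib libraries 27.75 and 25.9 CPM in PSC4 and 23.35 and 27.95 CPM in PSC5. The coefficient of variation over all 17 libraries was 11.9%. Pnpla2 rose in CM by 0.28 ± 0.08 on the log2 scale (1.21-fold, edgeR adjusted p = 0.0416), higher in 4 of 4 passages though the groups overlapped, and was 0.30 ± 0.09 above TGF-beta (edgeR adjusted p = 0.0168) without overlap. The latter was not called without CM PSC4 passage 24, CM PSC5 passage 27 or TGF-beta PSC5 passage 27 (edgeR adjusted p = 0.055, 0.06 and 0.0561). The rise over control was not called with upper-quartile scaling (edgeR adjusted p = 0.0783), with no filter on low counts (0.0746), with only these 2 groups fitted (0.0529) or without any 1 of 6 libraries (every library of the comparison other than CM PSC4 passage 23, CM PSC5 passage 28 and control PSC5 passage 28), of which CM PSC5 passage 27 gave the highest edgeR adjusted p (0.144). The difference of CM + neratinib from control was 0.20 ± 0.09 (edgeR adjusted p = 0.0675), and from TGF-beta 0.22 ± 0.09 (edgeR adjusted p = 0.0551), which the replicate block called (0.25 ± 0.10, edgeR adjusted p = 0.0436).

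G0s2 (chr1:193272161-193273217, minus strand), the inhibitor of that lipase, had the widest range of the members, 163-fold between its lowest and highest library. Control libraries had 0.159, 4.08 and 6.73 CPM in PSC4 and 0.6825 and 0.4255 CPM in PSC5, and TGF-beta libraries 19.7 and 26.0 CPM in PSC4 and 5.80 and 7.61 CPM in PSC5. CM libraries had 0.306 and 1.87 CPM in PSC4 and 0.191 and 0.302 CPM in PSC5, and CM + neratinib libraries 1.36 and 6.58 CPM in PSC4 and 0.994 and 1.79 CPM in PSC5. As with Cebpa, PSC4 at passages 24 and 25 was high in each group and PSC4 at passage 23 lay with PSC5, which made the groups overlap. G0s2 rose in TGF-beta by 2.96 ± 0.68 on the log2 scale (7.78-fold, edgeR adjusted p = 0.00308), at 3.86 to 17.9 times control over 4 of 4 passages. The difference of CM from control was -1.59 ± 0.77 (edgeR adjusted p = 0.19), lower in 3 of 4 passages. It was called only without the passage 23 control library (-1.91, edgeR adjusted p = 0.0492) or without all passage 23 libraries (-1.46, edgeR adjusted p = 0.0278). With neratinib the level was above that in CM in 4 of 4 passages, at 3.52 to 5.92 times, with a log2 difference of 2.14 ± 0.81 (edgeR adjusted p = 0.0724), or 2.12 ± 0.42 with the replicate block (edgeR adjusted p = 0.00359) and 2.10 without the passage 23 libraries (edgeR adjusted p = 0.00816). CM + neratinib against control gave 0.55 ± 0.70 (edgeR adjusted p = 0.543), or 1.07 ± 0.38 with the block (edgeR adjusted p = 0.0316). Against TGF-beta, G0s2 was lower by 4.55 log2 units in CM (-4.55 ± 0.83, edgeR adjusted p = 0.00059), without overlap, and in CM + neratinib (-2.41 ± 0.73, edgeR adjusted p = 0.0147), where the call was lost without the cell line term (edgeR adjusted p = 0.059). The order of the mean levels was TGF-beta, CM + neratinib, control and CM. Without the block none of the last 3 was called different from another, and with it CM + neratinib was called against both control and CM while CM against control was not (-1.05 ± 0.43, edgeR adjusted p = 0.10).

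**Figure D3:**
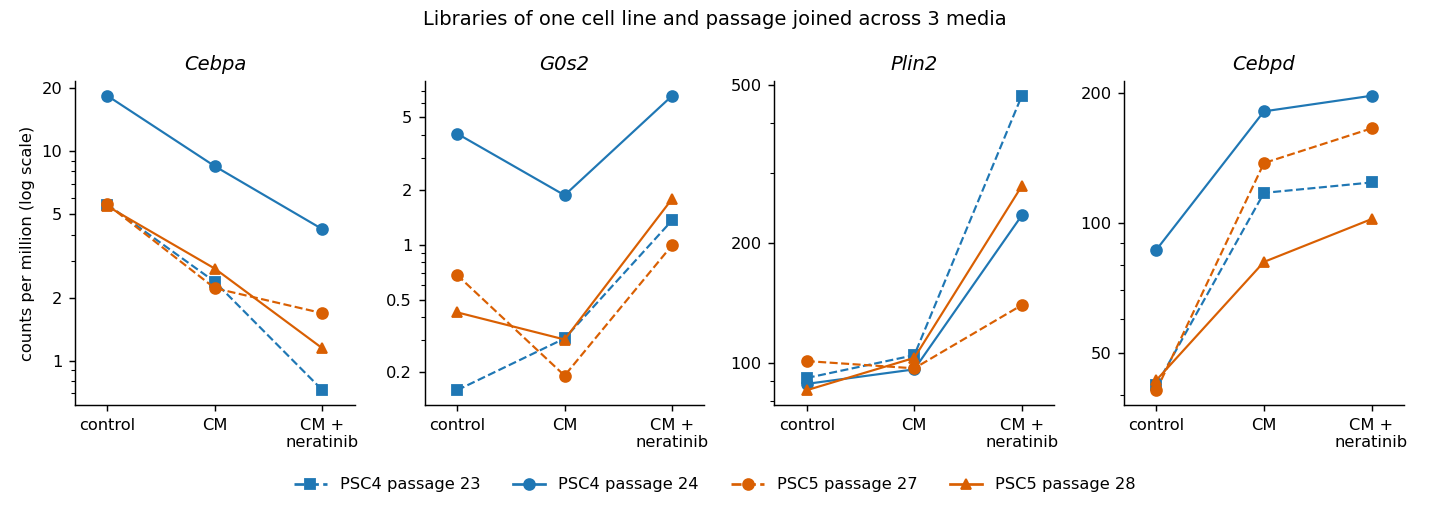
Cebpa, G0s2, Plin2 and Cebpd in control, CM and CM + neratinib, in CPM on log axes, with lines joining libraries of one cell line and passage. All 4 lines fall at both steps for Cebpa and rise from CM to CM + neratinib for G0s2 and Plin2, and PSC4 passage 24 is the highest joined line for Cebpa and G0s2.

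No member, and none of the 13923 tested genes, was called for a difference between the 2 lines in the response to TGF-beta (0% of all genes), to CM (0%) or to neratinib in CM (0%) by edgeR. At an unadjusted p under 0.05 these tests gave 601, 43 and 237 genes and 0 members each, and DESeq2 called 29, 0 and 1 genes and no member. These tests took the passage 23 libraries, which stood apart from their line, as PSC4. For TGF-beta, edgeR called 3 genes with them counted with PSC5 and 2 with them removed. For CM and for neratinib in CM it called 0 genes in both settings, and it called 0 members throughout. Conditioned medium T6 against T8, fitted with the replicate block, gave 0 calls by edgeR (0% of all genes), 906 genes and 1 member (Fabp5, 0.67 ± 0.24, adjusted p = 0.70) at an unadjusted p under 0.05, and 33 genes but no member by DESeq2. The code goes with the replicate number in every conditioned medium library.

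The genes around the members were counted in 8 lists of the same pathways, which leave the members out and share a few genes such as Plin4, Angptl4 and Cpt1b, all read against the shares of all tested genes given above. Of 21 tested adipogenic transcription factors, 11 fell and 2 rose in TGF-beta. Klf15, a factor that promotes fat cell differentiation, fell by 2.21 ± 0.33 on the log2 scale (edgeR adjusted p = 9.28e-05) from a mean of 22.04 CPM to 4.78 CPM. The coactivator Ppargc1a fell by 1.495 ± 0.18 (edgeR adjusted p = 1.26e-05), and Egr2 rose by 1.75 ± 0.36 (edgeR adjusted p = 0.0014). In CM 3 rose and 3 fell: Cebpb, which acts beside Cebpd early in the programme, rose by 1.11 ± 0.18 (edgeR adjusted p = 0.00141) from 91.3 to 195 CPM and Stat5a by 0.86 ± 0.19 (edgeR adjusted p = 0.00889), while Klf4 fell by 0.88 ± 0.28 (edgeR adjusted p = 0.0456). In CM + neratinib against control 3 rose and 6 fell, with Cebpb again higher (1.27 ± 0.18, edgeR adjusted p = 0.000109). Egr2 fell there by 1.23 ± 0.39 (edgeR adjusted p = 0.0193) and Ppargc1a by 0.60 ± 0.17 (edgeR adjusted p = 0.0114), both with overlap between the groups. The list's median log2 fold change was -0.56 in TGF-beta, -0.10 in CM and -0.13 in CM + neratinib, beside -0.02, 0.00 and 0.00 over all genes.

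Of 13 brakes on adipogenesis, 3 rose and 2 fell in TGF-beta, 1 rose and 3 fell in CM, and 3 rose and 6 fell in CM + neratinib. Dlk1, the preadipocyte surface protein that holds back differentiation, fell in each medium: by 1.34 ± 0.44 in TGF-beta (edgeR adjusted p = 0.0241), by 2.35 ± 0.45 in CM (edgeR adjusted p = 0.00417), and it fell by 3.602 ± 0.48 in CM + neratinib (edgeR adjusted p = 6.92e-05), from 194 CPM in control to 18.7 CPM in the last. Trib3, a stress-induced pseudokinase that blocks AKT, rose over control in each medium, from a mean of 14.0 CPM. The rise was 1.54 ± 0.20 in TGF-beta (edgeR adjusted p = 2.61e-05), to 41.25 CPM. In CM it was 0.80 ± 0.20 (edgeR adjusted p = 0.0156), to 24.85 CPM, with overlap. It was largest in CM + neratinib, at 3.28 ± 0.20 (edgeR adjusted p = 1.89e-07), to 137 CPM. Trib3 was there 2.47 ± 0.21 above CM (edgeR adjusted p = 1.52e-05). Klf2, which represses Pparg in preadipocytes, rose by 1.91 ± 0.15 in CM + neratinib over control (edgeR adjusted p = 8.64e-07).

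Of 25 adipocyte PPARG target genes, 17 were tested, and Adipoq, Plin1, Cidec, Cidea, Pck1, Cfd, Lep and Ucp1 were at or near 0, with at most 4 counts in a library. In TGF-beta 4 rose and 9 fell, in CM 4 rose and 3 fell, and in CM + neratinib 6 rose and 4 fell. The members that moved in TGF-beta were not alike: the scavenger receptor gene Olr1 rose by 6.22 ± 0.51 (edgeR adjusted p = 4.44e-07) from 0.59 to 41.9 CPM and Ucp2 by 4.15 ± 0.25 (edgeR adjusted p = 2.2e-08), while Acsl1 fell by 1.22 ± 0.18 (edgeR adjusted p = 0.000106). Angptl4, a secreted inhibitor of lipoprotein lipase, rose from 28.9 CPM in control to 77.7 CPM in CM and 133 CPM in CM + neratinib. The rise was 1.39 ± 0.22 in CM (edgeR adjusted p = 0.00141) and 2.16 ± 0.23 in CM + neratinib (edgeR adjusted p = 1.01e-05). Angptl4 fell by 0.83 ± 0.23 in TGF-beta (edgeR adjusted p = 0.0105), with overlap between the groups. Cpt1b, an enzyme that acts in the entry of fatty acids into mitochondria, rose by 1.60 ± 0.20 in CM + neratinib (edgeR adjusted p = 4.67e-05).

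Of 15 tested genes of the droplet coat and its assembly, 2 rose and 4 fell in TGF-beta, 1 fell in CM, and 5 rose and 1 fell in CM + neratinib. The perilipin Plin4 fell in CM (-1.62 ± 0.40, edgeR adjusted p = 0.0162) and in TGF-beta (-1.15 ± 0.39, edgeR adjusted p = 0.0292), while Plin2 rose in TGF-beta. Hilpda, a hypoxia-induced droplet protein that inhibits PNPLA2 as G0S2 does, rose by 1.07 ± 0.19 in CM + neratinib (edgeR adjusted p = 0.000594), from 7.72 to 16.2 CPM. Plin3 rose there by 0.43 ± 0.11 (edgeR adjusted p = 0.00714), with overlap between the groups. Mest, an imprinted gene linked to fat cell growth, fell by 4.57 ± 0.68 there (edgeR adjusted p = 0.000155), from 35.2 to 1.52 CPM. Plin1, Plin5, Cidea, Cidec, Fitm1 and Hsd17b13 were at or near 0.

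Of 11 tested genes of triglyceride breakdown, 2 rose and 6 fell in TGF-beta, among the latter hormone-sensitive lipase Lipe (-0.77 ± 0.18, edgeR adjusted p = 0.00367). In CM 1 rose and 3 fell, and in CM + neratinib 1 rose and 5 fell. The gene that rose was Abhd5 in both, the coactivator of PNPLA2, at 0.28 ± 0.08 in CM (edgeR adjusted p = 0.0333) and 0.60 ± 0.08 in CM + neratinib (edgeR adjusted p = 7.4e-05). Of 19 tested genes of triglyceride synthesis, 7 rose and 2 fell in TGF-beta (Lpin3, Acsl6 and Gpat3 by 1.597, 1.535 and 1.498), 4 rose and 2 fell in CM, and 9 rose and 2 fell in CM + neratinib. Dgat2, which catalyses the last step, rose by 1.52 ± 0.28 in CM (edgeR adjusted p = 0.00328) and by 1.80 ± 0.28 in CM + neratinib (edgeR adjusted p = 0.000224), from 11.9 to 35.4 and 43.6 CPM, and Lpin1 fell by 1.41 ± 0.16 in the latter (edgeR adjusted p = 1.68e-05).

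Of 16 tested genes of fatty acid uptake and binding, 4 rose and 1 fell in TGF-beta, 3 rose and 2 fell in CM, and 9 rose and 3 fell in CM + neratinib. In TGF-beta, where Lpl fell, the endothelial-type lipase Lipg rose by 2.55 ± 0.19 (edgeR adjusted p = 1.64e-07) from 7.46 to 44.3 CPM. In CM + neratinib the lipoprotein receptor Vldlr rose by 1.84 ± 0.23 over control (edgeR adjusted p = 4.73e-05) and by 2.55 ± 0.26 over CM (edgeR adjusted p = 6.25e-05), at 133, 37.2 and 22.7 CPM in CM + neratinib, control and CM, and caveolin Cav1 fell by 1.48 ± 0.24 (edgeR adjusted p = 0.000254). Fabp1, Fabp2, Fabp6, Gpihbp1, Slc27a2 and Lipc were at or near 0. Of 25 genes of fatty acid oxidation, 2 rose and 10 fell in TGF-beta, 1 rose and 4 fell in CM, and 6 rose and 7 fell in CM + neratinib. Pdk4, which spares glucose for fat burning, fell in all 3. The fall was 0.99 ± 0.20 in TGF-beta (edgeR adjusted p = 0.00104). In CM it was 0.90 ± 0.20 (edgeR adjusted p = 0.00853) and in CM + neratinib 1.09 ± 0.20 (edgeR adjusted p = 0.000659). Both conditioned medium groups overlapped control. The mitochondrial thioesterase Acot2 rose by 1.86 ± 0.21 in CM + neratinib (edgeR adjusted p = 1.51e-05), from 4.92 to 17.6 CPM.

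**Figure D4:**
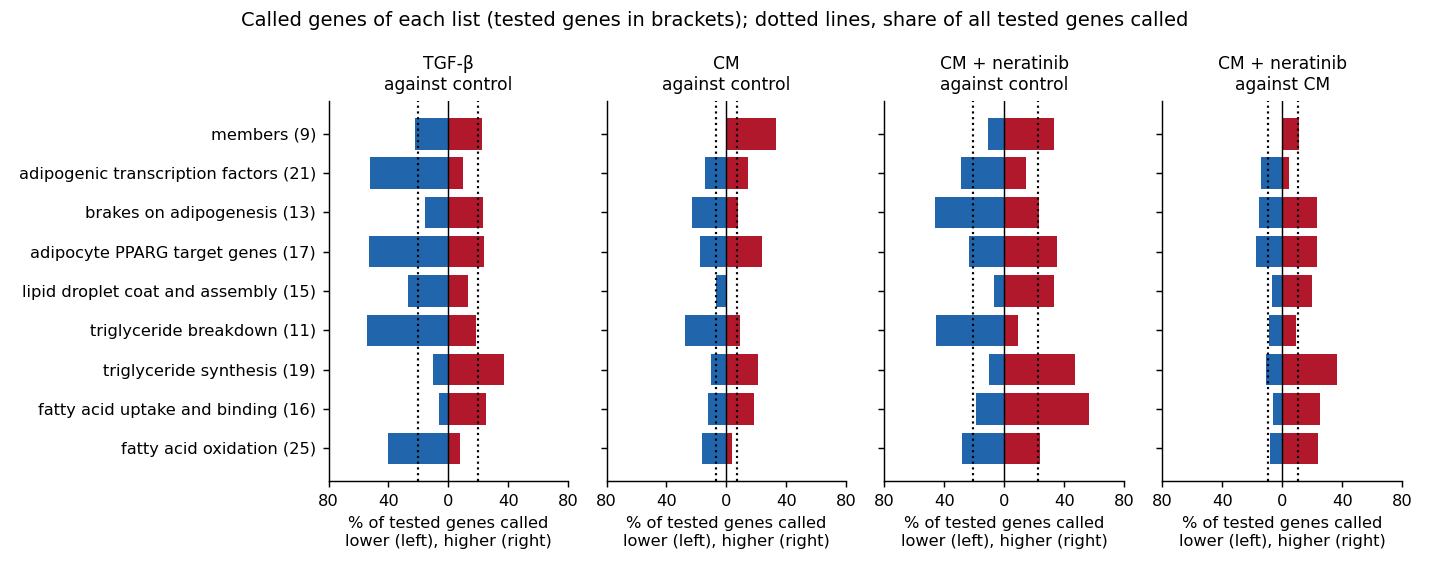
Share of the tested genes of each list called higher (right, red) or lower (left, blue) in 4 comparisons, in percent, with tested genes in brackets. Dotted lines give the shares of all 13923 tested genes. In TGF-beta, the transcription factor list has 11 of 21 genes lower, and in CM + neratinib against control the uptake list has 9 of 16 higher.

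With neratinib added to CM, 1 transcription factor rose and 3 fell (Klf4 by 1.09 ± 0.29 higher, edgeR adjusted p = 0.0169), 3 brakes rose and 2 fell, 4 PPARG targets rose and 3 fell, and 3 droplet genes rose and 1 fell. In the same comparison 1 breakdown gene rose and 1 fell, 7 synthesis genes rose and 2 fell, 4 uptake genes rose and 1 fell, and 6 oxidation genes rose and 2 fell. The droplet genes that rose beside Plin2 were Hilpda (0.89 ± 0.20, edgeR adjusted p = 0.00797), Plin3 (0.51 ± 0.12, edgeR adjusted p = 0.00904) and, with a smaller change, Ldah, named after its value was seen, and Mest fell (-3.78 ± 0.68, edgeR adjusted p = 0.00215). Angptl4 rose by a further 0.77 ± 0.23 (edgeR adjusted p = 0.0323), with overlap between the groups.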

How the data were processed

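Gene-level RNA abundance was deposited for each of the 17 libraries as estimated counts, 1 file per library, and per the submitters' processing notes the authors used Salmon 1.4.0, DESeq 2 and the mouse build GRCm38 (mm10); settings and strand are not given in the sources used here. Of the values above 0, 74.8% were not whole, so the deposited estimated counts were rounded, which changed no library total by more than 307.9 counts. No deposited column lacked a sample (0 columns).

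Groups, lines and passages came from the sample labels. Genes were kept by filterByExpr of edgeR 4.0.16 (R 4.3.3, limma 3.58.1; minimum count 10, minimum total 15), leaving 13923, and scaled by TMM. One model with media group and cell line, over all 17 libraries, was tested by edgeR's quasi-likelihood F-test, with Benjamini-Hochberg adjustment over all tested genes and a threshold of 0.05 (biological coefficient of variation 19.8%). Fold changes are on the log2 scale, levels are CPM, and likeness used log2 CPM with a prior count of 2. Depth of 22168953 to 29421447 counts makes 3 counts 0.101 to 0.138 CPM. The procedure was tested on simulated data.

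All 10 members are described whatever their values. From each further list, genes named are the 3 called genes per comparison with the largest change and a mean in the higher group of 5 CPM or more, and genes at or near 0. The 8 lists were adipogenic transcription factors, brakes on adipogenesis, adipocyte PPARG targets, droplet coat and assembly, triglyceride breakdown, triglyceride synthesis, fatty acid uptake and binding, and fatty acid oxidation; the 5 marker lists were stellate and fibroblast, adipocyte, macrophage, endothelial and epithelial. Members and lists were chosen with earlier results of these data known.

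The labels tie libraries by line and passage. Same line-and-passage libraries deviated together from their group means (22 pairs, r of 0.12 to 0.635, median 0.299) more than other passages of the line (32 pairs, median -0.0756) or the other line (54 pairs, median -0.183), so the fit with the replicate block of 5 levels is given where it changes a call. Alternatives were DESeq2 1.42.0, RLE and upper-quartile scaling, 2 other filters, no line term, only the groups compared, the PSC4 passage 23 libraries removed or counted with PSC5, and each library left out. Gene positions are from GENCODE M21 (GRCm38) and promoters from RefSeq (GRCm38.p6).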

Additional observations from a re-analysis of the deposited data

Results flagged for a closer look

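Of 36 groups of 4 or 5 libraries checked (9 members in 4 media), 5 had 1 library far from the rest. The rule was set at about 1 in 20 such groups for libraries that are alike. Each group held 2 lines, and the 9 members share their libraries, so that rate cannot be used here to judge the number of flags. Pparg was at 5.87 CPM in CM + neratinib PSC5 passage 28, with the others at 2.20 to 2.53 CPM. Cebpa was at 8.47 CPM in CM PSC4 passage 24 (others 2.22 to 2.75 CPM). The same library had 1.87 CPM of G0s2 (others 0.191 to 0.306 CPM). With neratinib, PSC4 passage 24 again had the highest G0s2, 6.58 CPM (others 0.994 to 1.79 CPM). Fabp4 was at 2.24 CPM in TGF-beta PSC5 passage 27 (others 0.163 to 0.413 CPM).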

How the results depend on the processing

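Of the 54 results for a member in a comparison, 24 were called by edgeR: 19 kept the call in every alternative and 5 lost it in some, and none of the 24 changed sign. Of the 30 not called, 20 were called in none and 10 in some. The number of members called in CM against control was 5 with the PSC4 passage 23 libraries removed. In CM + neratinib against CM it was 2 with DESeq2, 3 with the replicate block, 3 when passage 23 of PSC4 was treated as PSC5 and 3 without it. Leaving out 1 library gave 4 to 5 members in TGF-beta against control, 1 to 3 in CM against control, 4 to 5 in CM + neratinib against control, 1 to 2 in CM + neratinib against CM, 5 to 6 in CM against TGF-beta and 6 to 7 in CM + neratinib against TGF-beta. The replicate block changed no call other than those given with Cebpa, G0s2, Plin2 and Pnpla2. Over all genes, CM against control had 1976 calls, 3240 with the block, 2986 with passage 23 counted with PSC5 and 801 to 1793 with 1 library left out (801 without CM PSC5 passage 27). CM + neratinib against CM had 2850, 4563 with the block, 602 with only these groups fitted and 1748 to 3685 with 1 library left out.

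Signs changed only for members that were not called. With 1 library left out, the log2 fold change in TGF-beta ran from -0.155 to 0.28 for Fabp5 and from -0.054 to 0.037 for Pnpla2. In CM + neratinib against control it ran from -0.52 to 0.081 for Pparg and from -0.83 to 0.013 for Lpl. In CM + neratinib against CM it ran from -0.31 to 0.50 for Pparg, from -0.046 to 0.44 for Cebpd, from -0.20 to 0.37 for Fabp4 and from -0.55 to 0.24 for Lpl. Without all passage 23 libraries, Pparg came to 0.18 in CM + neratinib against control, and Fabp5 and Lpl to 0.0082 and 0.098 in CM + neratinib against CM. The cause was not tested. Counts of 4 to 330 per library stand behind Fabp4 and of 45 to 167 behind Pparg, which limits their precision.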
